A study of Mus musculus with 12 samples.

Results

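Rab GTPases were measured by 120 probes of 59 genes, out of 41174 gene probes of 18295 genes on the array. Members were all probes whose gene symbol reads Rab, digits and an optional letter. Of the 59 genes, 22 had 1 probe, 18 had 2, 14 had 3 and 5 had 4, so 37 genes allowed probes of the same gene to be set side by side. The 2 probes of Rab1 keep the array's older symbol, since the RefSeq gene table lists Rab1a and the array's Rab1 could not be matched to it.

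The cells were 3T3-L1 adipocytes, fat cells grown in culture from a mouse preadipocyte line. Each of 12 two-colour arrays set their RNA against 1 common RNA of undifferentiated 3T3-L1 cells. The mature adipocytes had been transfected by Amaxa electroporation with small interfering RNA against Tip60 (TIP60-si), against USP7 (USP7-si) or with a control (control-si), 4 arrays each, and were lysed 2 days later. All groups were transfected, control-si included, and the sequences of the small interfering RNAs were not used here. Nothing in the labels tells whether the 4 samples of a group came from separate cultures, and a p-value then covers no more than the spread among them, which may be technical. Tip60, the product of Kat5, acetylates histones, and USP7 removes ubiquitin from proteins. Values are log2 ratios of adipocytes over undifferentiated cells, corrected for the dye. Fold changes are log2 with the standard error (SE) of the model, and p-values are from limma, adjusted over the 41174 probes with a threshold of 0.05.

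Rab proteins are small GTPases that mark the membranes of the cell. In the GTP-bound state each recruits effectors that move, tether and fuse vesicles at its own compartment, guanine nucleotide exchange factors (GEFs) switch it on, and GTPase-activating proteins (GAPs) switch it off. In adipocytes, Rabs that act below the insulin-regulated GAP Tbc1d4, Rab10 above all, bring vesicles with the glucose transporter GLUT4 to the plasma membrane, and Rab18 is found on lipid droplets.

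The 300-base windows at the start sites of 3 Rab genes are printed because the values turn on these genes: Rab7, whose probes disagree most, and Rab9 and Rab40b, which stood far below and far above the undifferentiated cells. They run 5′ to 3′ from RefSeq (GRCm38.p6), all on the minus strand, with every GGGCGG, the core of the GC box, in capitals. Rab7 has a second window in the table that is not printed.
Rab7, chr6:88045221-88045520: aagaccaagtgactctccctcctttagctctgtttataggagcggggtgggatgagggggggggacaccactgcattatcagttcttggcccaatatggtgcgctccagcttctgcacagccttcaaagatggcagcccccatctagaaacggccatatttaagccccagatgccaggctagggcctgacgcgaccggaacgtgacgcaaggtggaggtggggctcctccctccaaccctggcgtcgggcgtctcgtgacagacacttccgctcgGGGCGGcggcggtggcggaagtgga
Rab9, chrX:166479818-166480117: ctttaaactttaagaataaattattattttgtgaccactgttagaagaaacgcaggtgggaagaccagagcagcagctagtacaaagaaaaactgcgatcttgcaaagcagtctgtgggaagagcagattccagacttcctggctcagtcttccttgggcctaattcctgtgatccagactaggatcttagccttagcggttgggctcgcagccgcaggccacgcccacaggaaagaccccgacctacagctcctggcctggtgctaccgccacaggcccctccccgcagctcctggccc
Rab40b, chr11:121388202-121388501: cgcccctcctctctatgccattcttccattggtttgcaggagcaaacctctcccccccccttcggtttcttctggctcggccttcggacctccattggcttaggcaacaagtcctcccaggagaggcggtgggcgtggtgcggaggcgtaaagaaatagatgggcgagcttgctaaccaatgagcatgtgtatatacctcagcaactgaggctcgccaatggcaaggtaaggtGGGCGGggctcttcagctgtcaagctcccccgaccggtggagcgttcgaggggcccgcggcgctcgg
All motif counts here take either strand, so TATAAA may be printed as TTTATA and CCAAT as ATTGG. The Rab7 window holds GGGCGG 1 time, CCAAT 1 time and TATAAA 1 time, the last as TTTATA. The Rab40b window holds GGGCGG 1 time and CCAAT 4 times, and the Rab9 window holds neither of them nor TATAAA. Over the 60 windows of 48 Rab genes in the table, 68.3% held GGGCGG on either strand, against 35.7% of all 32851 windows. CCAAT was found in 43.3% of the Rab windows and in 37.4% of all windows, TATAAA in 6.67% and 13.6%, and the E-box CACGTG in 10% and 7.15%. These are matches of letters in a fixed window, and no binding was measured.

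Of the 120 probes, 96 stood over 2 background SDs above background in the sample dye on all 12 arrays and 1, a Rab27b probe, on none. The brightest probe of the gene, which stands for the gene where genes are counted, was above background on all 12 arrays for 56 of 59 genes. No Rab probe was saturated, the brightest single signal being 12211. Median sample signals ran from 124 to 196 per array, over median backgrounds of 39.5 to 44. Kat5 fell in TIP60-si (log2 fold change -0.999, SE 0.068, adjusted p = 1.17e-05) and Usp7 in USP7-si (-1.64, SE 0.10, adjusted p = 1.16e-05). The adipocyte markers had a median of 3.77 over undifferentiated cells in control-si, with 10 of 10 above 1, and the macrophage markers a median of 0.075, with 0 of 8 above 1. USP7-si array 4 stood apart in the values used here: its median absolute log2 ratio over all probes was 0.055, against 0.109 to 0.148 on the other arrays, although in the value table the authors deposited it was 0.148, within the range of the other arrays. The totals of Rab probes called in the comparisons with USP7-si are also given without it. The counts by class, marker and regulator list include it.

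In control-si, 51 of 59 Rab genes lay within 1.5-fold of their level in undifferentiated cells, 2 were higher past that fold and 6 lower. Over all genes, 7.01% were higher and 5.5% lower past the same fold. Below 0 lay 43 of 59 Rab genes, or 72.9%, against 50.6% of all genes, and the Rab median was -0.085 against -0.0019 for all genes. The 43 include genes within their spread of 0, such as Rab26 at -0.0034 ± 0.10. The median absolute ratio was 0.188 for Rab genes and 0.131 for all genes. The reference is 1 RNA with no spread of its own, so these ratios are described and not tested. In bulk RNA, fewer cells of a type and less RNA per cell cannot be told apart.

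Rab40b, a Rab with a SOCS box that joins a ubiquitin ligase, stood highest. Its ratio was 1.32, 1.501, 1.06 and 1.30 on the 4 control-si arrays, a mean of 1.29 ± 0.18 (SD, n = 4) or 2.45-fold. Rab3d, a Rab of secretory vesicles, followed at 0.85, 0.72, 0.49 and 0.72, a mean of 0.70 ± 0.15. No array of either gene came near 0. Over all of its probes Rab3d averaged 0.51. Next came Rab8b, which acts in transport from the trans-Golgi to the plasma membrane, at 0.30 ± 0.080, and Rab1b, which acts between endoplasmic reticulum (ER) and Golgi, at 0.29 ± 0.027. Rab13 (0.26 ± 0.050), which serves traffic to the cell surface, Rab15 of recycling endosomes (0.19 ± 0.042), Rab29 (0.13 ± 0.043) and Rab32 of lysosome-related organelles (0.10 ± 0.026) closed the highest 8. Neighbours in this order lay within each other's spread, except that Rab40b stood clear of Rab3d and Rab3d of Rab8b.

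At the low end stood Rab30, a Golgi Rab, at -1.19, -1.27, -1.35 and -1.36, a mean of -1.29 ± 0.082 or 2.45-fold lower. Rab31, which acts between the trans-Golgi and endosomes, was next at -1.16, -1.27, -1.28 and -1.15, a mean of -1.21 ± 0.068. These are the only Rab genes over 2-fold lower and Rab40b the only one over 2-fold higher, where 2.0% of all genes were lower and 2.94% higher past that fold. The arrays of Rab30 and Rab31 overlap. Rab9, which returns cargo from late endosomes to the Golgi, stood at -0.89 ± 0.073. Rab21 of early endosomes was at -0.74 ± 0.065, Rab28, known from the cilium, at -0.69 ± 0.046 and Rab33b of the Golgi at -0.66 ± 0.20, and these 3 overlap. The dimmer probes of Rab21 lay nearer 0, at -0.31 for MMAB039315 and 0.028 for MMAB029509, as did those of Rab28, at -0.41 for MMAB004424 and -0.031 for MMAB040554.

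**Figure D1:**
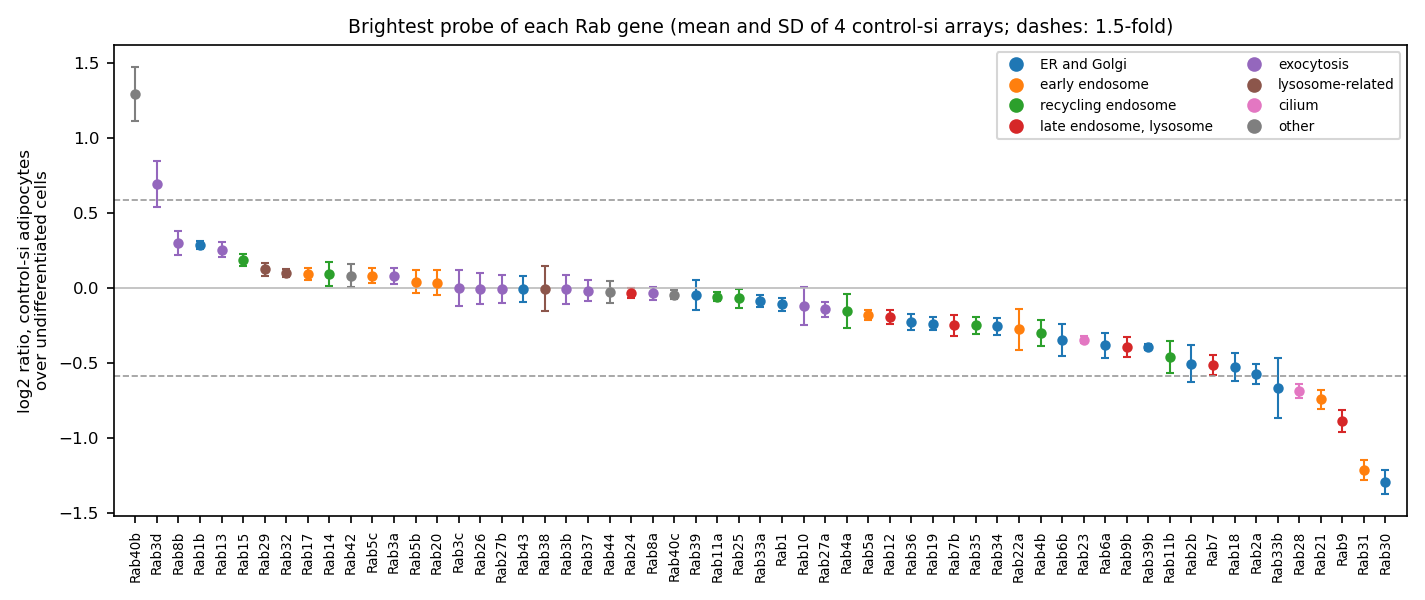
Log2 ratio of control-si adipocytes over undifferentiated cells (vertical axis) for the brightest probe of each of the 59 Rab genes, from highest to lowest. Points are means and bars SDs of 4 arrays, colours are trafficking classes and dashed lines mark 1.5-fold. Rab40b and Rab3d lie above the upper line, and 6 genes from Rab33b to Rab30 lie below the lower one.

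The trafficking classes, assigned to the genes from textbook roles, were not placed alike. Of 16 genes of the ER and Golgi, 15 lay below 0, with a median of -0.30 and a range of -1.29 to 0.29, Rab1b being the exception. Of the 15, Rab43 (-0.0045 ± 0.087) and Rab39 (-0.047 ± 0.099) lay within their spread of 0. All 6 genes of late endosomes and lysosomes lay below 0, with a median of -0.32, among them Rab7 on its brightest probe at -0.51 ± 0.064. Rab24 of this class (-0.032 ± 0.035) was within its spread of 0. The 12 genes of exocytosis centred on 0, with a median of -0.0035, 7 below 0 and 5 above. Early endosome genes had a median of -0.070, with 4 of 8 below 0, and recycling endosome genes a median of -0.11, with 6 of 8 below 0. The 2 genes of the cilium lay below 0, 2 of 3 genes of lysosome-related organelles above it, and the 4 other genes on both sides. The classes are small and share all 4 arrays, so these are counts and not tests.

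The Rabs of insulin-regulated glucose transport were close to the level of undifferentiated cells on their brightest probes. Rab10, the Rab of GLUT4 vesicles, was at 0.05, -0.10, -0.25 and -0.17 on the control-si arrays, a mean of -0.12 ± 0.13. Rab8a, its close relative, was at -0.034 ± 0.043 and Rab14, which carries GLUT4 through endosomes, at 0.095 ± 0.079. Rab5a of early endosomes was at -0.18 ± 0.034 and Rab4b of recycling endosomes at -0.30 ± 0.088. For Rab10 the probes part: MMAB025423 gave 0.64 ± 0.048 and MMAB011715 0.60 ± 0.046, both past 1.5-fold on average, against -0.12 for the brightest probe, MMAB035445. The fourth probe, MMAB037170, lay near 0 in the authors' deposited values, at -0.0030 ± 0.088 in control-si. The spread of the Rab10 probes, 0.75, is under the limit of 1 used below for disagreement. These probes were singled out after their values were seen. Which of them follows the Rab10 transcript was not tested.

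A few Rab genes were lower in TIP60-si, most of their probes belonging to genes assigned to the ER and Golgi. Against control-si, TIP60-si had 8 of 120 Rab probes past the test, or 6.67%, where 3.78% of all probes passed. Of the 8, 1 was higher and 7 lower, and among all probes 1.25% were higher and 2.53% lower. The 8 probes belong to 5 genes: Rab2a with 3, Rab1 with 2, and Rab9, Rab18 and Rab7 with 1 each. The share of probes therefore counts some genes more than once. On the brightest probe of each gene, 4 of 59 Rab genes were called, where 5.21% of all genes were. At an unadjusted p under 0.05 stood 26 Rab probes, or 21.7% against 17.2% of all probes. Of these 5 were higher and 21 lower, where 7.53% of all probes were higher and 9.69% lower. The TIP60-si and control-si arrays lay apart upwards on 5 Rab probes and downwards on 10, and among all probes 5.0% and 6.47% lay apart in these directions. The median fold change of the 120 probes was -0.0092, against -0.0013 for all probes, and the median absolute fold change was 0.075 against 0.056. In the authors' deposited values the same fit called 9 Rab probes, 2 higher and 7 lower, the 8 among them, where 4.44% of all probes were called. With arrays only centred on their medians, or scaled to an equal spread, 0 Rab probes passed by limma, and 26 and 97 of all probes did.

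Rab2a, which acts in traffic between ER and Golgi and in the supply of lysosomes, had the largest fall. Its brightest probe, MMAB026706, read -1.20, -1.39, -1.25 and -1.16 in TIP60-si and -0.52, -0.60, -0.65 and -0.51 in control-si. Every TIP60-si array lay below every control-si array, by more than the range of either group. The fold change was -0.68 (SE 0.058, adjusted p = 5.47e-05), or 1.60-fold lower. The second probe, MMAB036075, read -0.29, -0.54, -0.46 and -0.54 in TIP60-si and -0.11, 0.04, 0.13 and 0.05 in control-si, again with no overlap (-0.49, SE 0.069, adjusted p = 0.0022). The third, MMAB033982, read -0.12, -0.52, -0.37 and -0.46 in TIP60-si and -0.15, 0.13, 0.26 and 0.12 in control-si (-0.46, SE 0.10, adjusted p = 0.022). Here control-si array 1 fell among the TIP60-si arrays, and the call was lost without any one of control-si arrays 2, 3 and 4 or TIP60-si arrays 2, 3 and 4 (adjusted p 0.053 to 0.072).

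The dimmest Rab2a probe, MMAB003201, did not pass. It read -0.50, -0.50, -0.46 and -0.53 in TIP60-si and -0.52, -0.55, -0.60 and -0.50 in control-si, with the groups overlapping (0.046, SE 0.045, adjusted p = 0.68). Its distance from MMAB026706 on the same array averaged 0.75 in TIP60-si and 0.029 in control-si, a difference of 0.72. Rab2a is among the genes chosen for such a gap between probes, so the difference is given without a test. The median raw signal of MMAB003201 was 331, and it was above background on all 12 arrays.

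Rab1, which drives transport from ER to Golgi, fell on both of its probes. MMAB010268 read -0.29, -0.43, -0.44 and -0.50 in TIP60-si and -0.11, -0.11, -0.16 and -0.05 in control-si, a fold change of -0.31 (SE 0.052, adjusted p = 0.0055). MMAB036683 read -0.33, -0.40, -0.39 and -0.27 in TIP60-si and -0.03, -0.11, -0.14 and -0.07 in control-si, a fold change of -0.26 (SE 0.046, adjusted p = 0.0065). The groups did not overlap on either probe. The related gene Rab1b did not pass: its brightest probe, MMAB011133, averaged 0.12 ± 0.11 in TIP60-si and 0.29 ± 0.027 in control-si (-0.17, adjusted p = 0.11). The array's design sequences were not used here, so binding of a probe to the transcripts of both genes could not be checked.

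Rab9 fell on its only probe, MMAB023911. It read -1.05, -1.21, -1.13 and -1.20 in TIP60-si and -0.82, -0.84, -0.98 and -0.90 in control-si, with no overlap (-0.26, SE 0.054, adjusted p = 0.017). The call was lost without control-si array 1, control-si array 2 or TIP60-si array 2 (adjusted p 0.053 to 0.063). Rab18, the lipid droplet Rab, fell on its brightest probe, MMAB027417, with -0.73, -0.75, -0.70 and -0.84 in TIP60-si and -0.45, -0.47, -0.65 and -0.53 in control-si (-0.23, SE 0.055, adjusted p = 0.034). These groups did not overlap, but the call was lost without any one of TIP60-si arrays 1 to 4 or control-si arrays 1, 2 and 4 (adjusted p 0.053 to 0.111), and also without USP7-si array 3, which enters only the shared spread (adjusted p = 0.0503). The other Rab18 probes gave fold changes of -0.018 for MMAB005264 and 0.084 for MMAB022872, and neither passed.

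**Figure D2:**
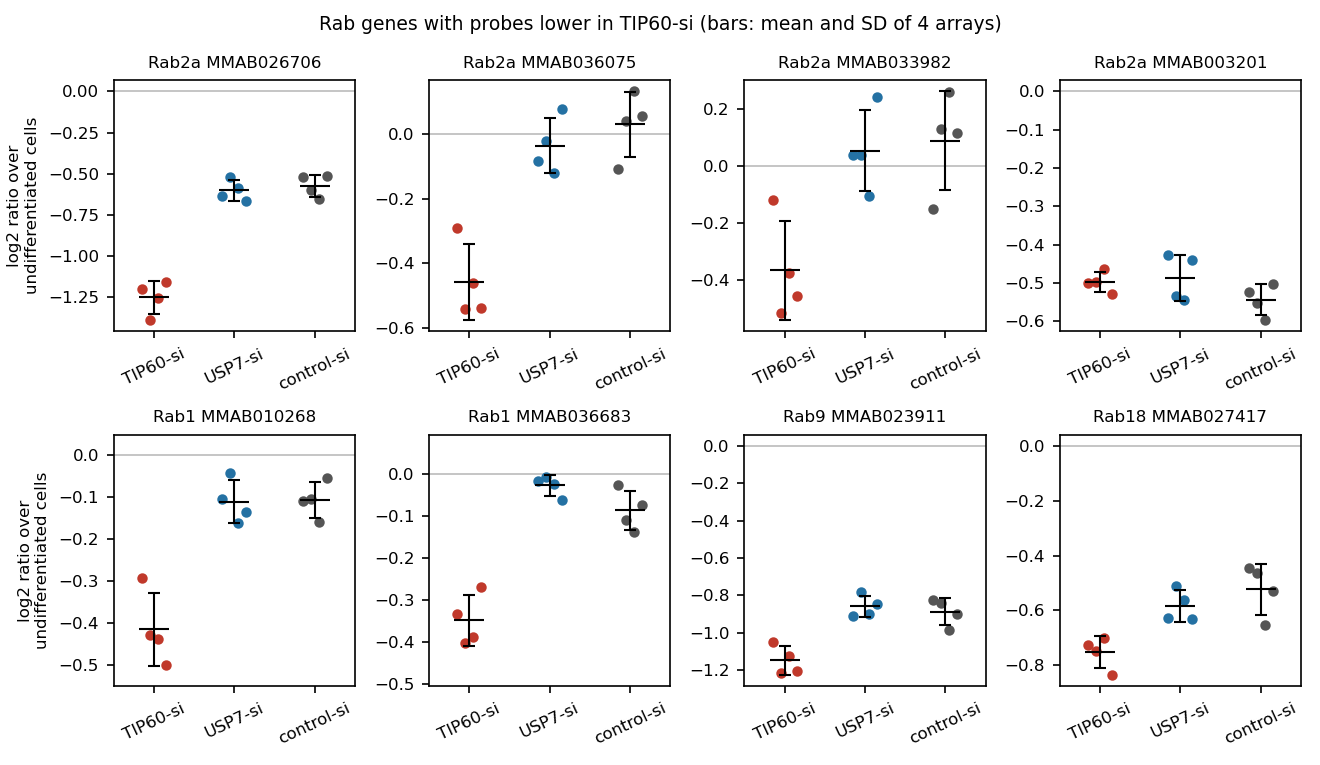
Log2 ratio over undifferentiated cells (vertical axis) on each array, for TIP60-si, USP7-si and control-si from left to right, for the 4 probes of Rab2a, both of Rab1, the probe of Rab9 and the brightest of Rab18. Points are arrays, and bars are the mean and SD of 4. The TIP60-si mean lies lowest in every panel but that of MMAB003201, where the groups mix.

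Rab7, which takes late endosomes to the lysosome, had the only higher probe, and its probes disagree more than those of any other Rab gene. The dimmest, MMAB015820, read 1.86, 1.89, 2.28 and 2.40 in TIP60-si and 1.38, 1.63, 0.89 and 1.16 in control-si. All TIP60-si arrays lay above all control-si arrays, and the fold change was 0.84 (SE 0.20, adjusted p = 0.031), or 1.80-fold. The call was lost without control-si array 1, 3 or 4 or TIP60-si array 3 or 4 (adjusted p 0.063 to 0.097). In the authors' deposited values, which were normalized without background correction, the same fit gave 0.83 (adjusted p = 0.0043).

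The brightest Rab7 probe, MMAB001666, did not pass. It read -0.50, -0.55, -0.52 and -0.47 in TIP60-si and -0.43, -0.53, -0.58 and -0.52 in control-si, with the groups overlapping (0.0028, SE 0.049, adjusted p = 0.99). The third, MMAB037380, read 0.10, -0.08, 0.15 and -0.19 in TIP60-si and -0.30, -0.19, 0.04 and 0.01 in control-si (0.10, SE 0.096, adjusted p = 0.67). Neither direction held under every setting: MMAB001666 turned to -0.21 and MMAB037380 to -0.023 when arrays were only centred on their medians. Median raw signals were 6345 for MMAB001666, 951 for MMAB037380 and 234 for MMAB015820.

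The Rab7 probes also part in the comparison with undifferentiated cells. In control-si, MMAB015820 averaged 1.26 ± 0.31, MMAB037380 -0.11 ± 0.16 and MMAB001666 -0.51 ± 0.064, so the annotated probes of a single gene put it above, near and below the undifferentiated level. On the same array MMAB015820 lay above MMAB001666 by 2.62 on average in TIP60-si and by 1.78 in control-si, a difference of 0.84. For MMAB037380 the matching difference was 0.10. Rab7 too was chosen for this gap, and neither difference is tested. Whether MMAB015820 measures another transcript was not tested, and the rise of that probe is not a rise of Rab7 on its other probes.

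**Figure D3:**
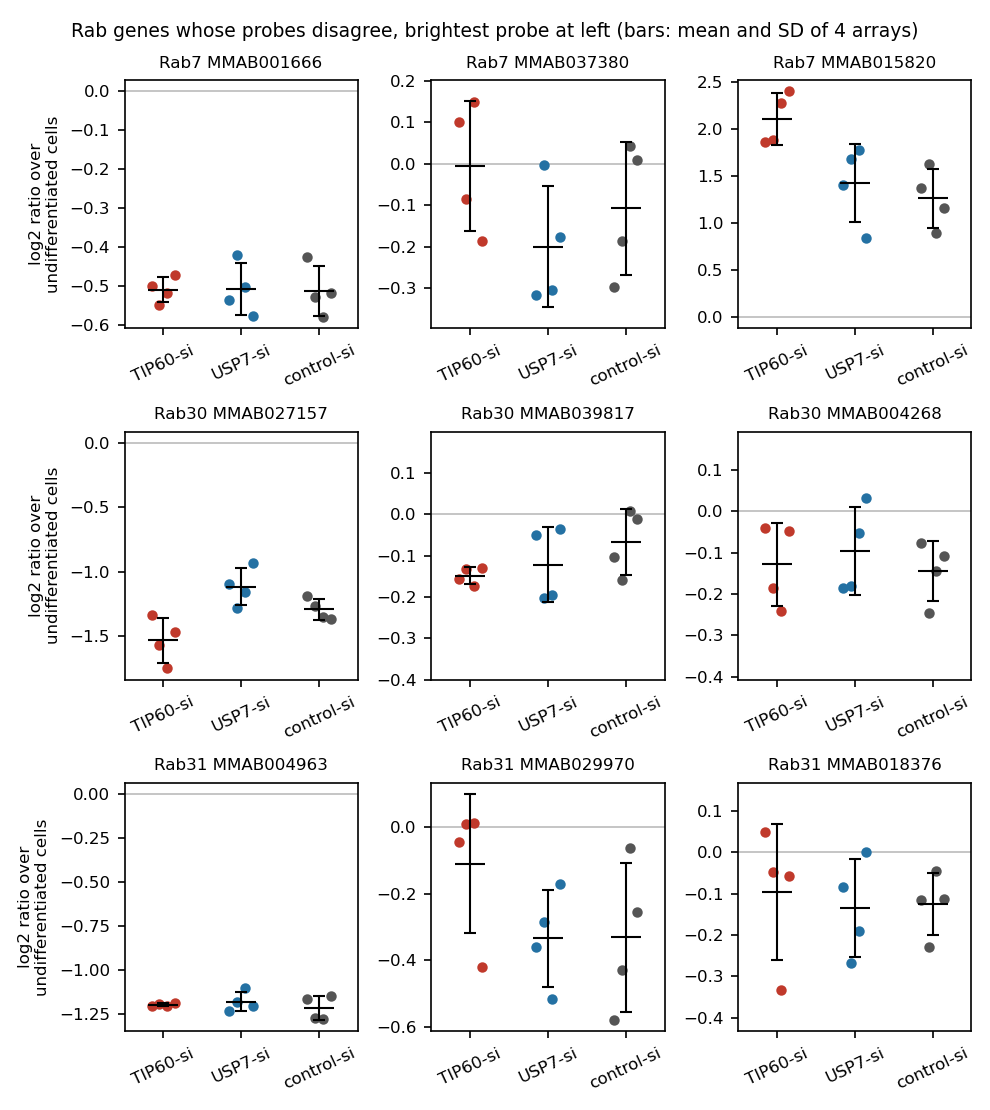
Log2 ratio over undifferentiated cells (vertical axis, scaled per panel) on each array for the probes of Rab7, Rab30 and Rab31, the genes whose probes part by over 1 in control-si. Groups run TIP60-si, USP7-si, control-si, the brightest probe of each gene is at the left, and bars are the mean and SD of 4 arrays. Rab7 MMAB015820 lies above 0 on all 12 arrays and MMAB001666 below 0 on all 12.

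Rab40b, Rab3d and Rab31, far from the level of undifferentiated cells, gave no call between the groups. Rab40b read 1.46, 1.51, 1.30 and 1.40 in TIP60-si and averaged 1.36 ± 0.28 in USP7-si and 1.29 ± 0.18 in control-si, with fold changes of 0.12 in TIP60-si and 0.066 in USP7-si. In the authors' deposited values, Rab40b in USP7-si was at 0.20 against control-si (adjusted p = 0.75). Rab31 MMAB004963 read -1.20, -1.19, -1.20 and -1.18 in TIP60-si and averaged -1.18 ± 0.056 in USP7-si and -1.21 ± 0.068 in control-si. Rab3d averaged 0.52 ± 0.087 in TIP60-si, 0.63 ± 0.17 in USP7-si and 0.70 ± 0.15 in control-si, within each other's spread (TIP60-si against control-si -0.17, adjusted p = 0.35). No probe of these 3 genes passed in any comparison. The dimmer probe of Rab40b, MMAB005065, averaged 0.40 ± 0.087 in control-si, on the same side as the brighter one but 0.89 lower.

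By class, 6 of the 35 probes of ER and Golgi Rabs were called lower in TIP60-si and 0 higher, against 2.53% lower and 1.25% higher over all probes. These 6 are the 3 Rab2a, 2 Rab1 and 1 Rab18 probes, so probes of the same gene are counted separately and are not independent. The classes were chosen with earlier results of these data known, so the class counts are descriptions and not tests. At an unadjusted p under 0.05, 13 probes of the ER and Golgi class were lower and 1 higher. Over the class, 22 of 35 probes lay below 0, with a median fold change of -0.043, and on the brightest probes 11 of 16 genes did, with a median of -0.13. Of 13 late endosome and lysosome probes, 1 was called lower (Rab9) and 1 higher (Rab7). No call fell among 26 exocytosis, 19 early endosome, 12 recycling endosome, 6 cilium, 3 lysosome-related or 6 other probes. At an unadjusted p under 0.05, late endosomes and lysosomes had 3 higher and 2 lower of 13, exocytosis 0 of 26, and early endosomes 2 lower. Recycling endosomes had 3 lower, the cilium 1 higher and the other probes 1 lower. Over all probes, 7.53% were higher and 9.69% lower at this p.

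Just outside the threshold lay Rab2b MMAB019941, a relative of Rab2a, at 0.25 (SE 0.067, adjusted p = 0.058), and Rab42 at -0.17 (SE 0.049, adjusted p = 0.067). Rab2b MMAB019941 read 0.27, 0.22, 0.34 and 0.20 in TIP60-si and -0.10, -0.10, 0.14 and 0.11 in control-si, without overlap, and passed in the authors' deposited values at 0.27 (adjusted p = 0.046). Rab2b MMAB015768, its brighter probe, was at 0.089 (adjusted p = 0.56). Also below 0 without passing were Rab33b at -0.25 (SE 0.086, adjusted p = 0.14) and Rab30 at -0.24 (SE 0.087, adjusted p = 0.16), both Golgi Rabs whose groups overlapped. Of the Rabs of glucose transport, none passed in TIP60-si: Rab10 on its brightest probe was at -0.031, Rab8a at -0.025, Rab14 at -0.12, Rab5a at -0.0028 and Rab4b at 0.085.

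Beside these values, 2 of 7 preadipocyte markers were called higher in TIP60-si than in control-si, Ccn5 at 0.39 and Thy1 at 0.26, and 0 lower. Of the others, Dlk1 was at 0.069, Pdgfra at -0.22 (adjusted p = 0.13), Col1a1 at -0.27 (adjusted p = 0.28), Col3a1 at -0.082 and Gata2 at -0.020, so the list's median fold change was -0.020. Thy1 itself stood above undifferentiated cells in control-si, at 0.52. At the same time 0 of 10 adipocyte markers and 0 of 8 macrophage markers were called. Over all genes on their brightest probe, 1.46% were called higher and 3.74% lower in TIP60-si than in control-si. In USP7-si against control-si, 0.137% were called either way. The endothelial gene Tek was called higher in TIP60-si (0.27) and in USP7-si (0.35) than in control-si, alone among 7 of its list. The median ratio of the preadipocyte list ran from -1.16 to -0.99 over the TIP60-si arrays and from -1.28 to -1.17 over the control-si arrays, higher in TIP60-si where the median fold change lay below 0. The part of cell state in the Rab values was not tested.

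USP7-si gave no call in the family. Of 120 Rab probes, 0 passed against control-si, where 0.085% of all probes did, and the smallest adjusted p by limma was 0.42. At an unadjusted p under 0.05 stood 5 Rab probes, or 4.17% against 6.27% of all probes. Of these 4 were higher and 1 lower, where 2.88% of all probes were higher and 3.39% lower. On 5 Rab probes the USP7-si arrays all lay above the control-si arrays and on 0 below, against 2.27% and 2.42% of all probes. Fold changes of the 120 probes ran from -0.16 to 0.20, with a median of 0.0033.

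The smallest p-values in USP7-si belonged to Rab29, a Rab of lysosomes and the trans-Golgi, and Rab13. Rab29 read 0.34, 0.26, 0.27 and 0.30 in USP7-si and 0.16, 0.10, 0.08 and 0.16 in control-si (0.16, SE 0.047, adjusted p = 0.42). Rab13 read 0.41, 0.49, 0.45 and 0.49 in USP7-si and 0.20, 0.29, 0.31 and 0.23 in control-si (0.20, SE 0.059, adjusted p = 0.43). The groups did not overlap for either gene, yet neither passed after adjustment. Rab34 (0.12), Rab36 (0.13) and Rab14 MMAB007728 (-0.14) followed, with adjusted p of 0.65, 0.71 and 0.69. For the probes that moved in TIP60-si, USP7-si had -0.029 for Rab2a MMAB026706, -0.0043 for Rab1 MMAB010268, 0.028 for Rab9 and -0.060 for Rab18 MMAB027417.

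The value of Rab7 MMAB015820 in USP7-si moved with the processing of USP7-si array 4. It read 1.41, 1.68, 1.77 and 0.84 in USP7-si against 1.38, 1.63, 0.89 and 1.16 in control-si, a fold change of 0.16 (adjusted p = 0.97). In the authors' deposited values USP7-si array 4 read 1.91 in place of 0.84, and the fold change was 0.44 (adjusted p = 0.56). The probe did not pass in either.

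**Figure D4:**
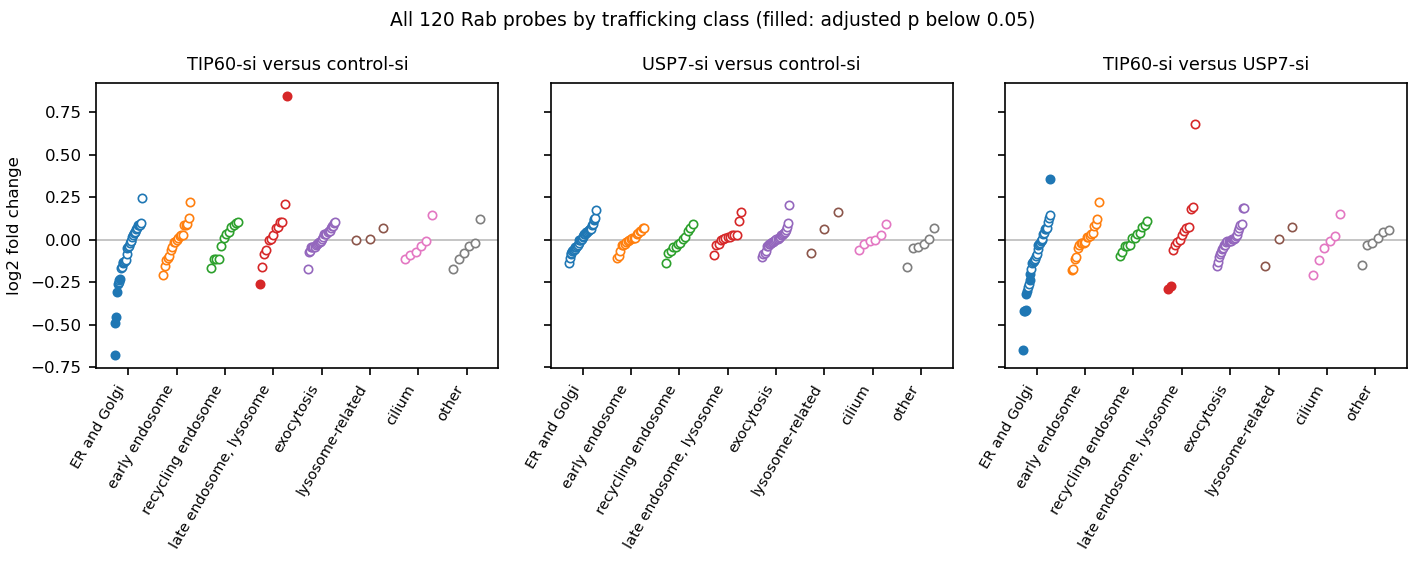
Log2 fold change (vertical axis) of all 120 Rab probes, ordered within each trafficking class, with a panel each for TIP60-si against control-si, USP7-si against control-si and TIP60-si against USP7-si. Filled points passed the test at an adjusted p below 0.05. The filled points lie mostly below 0 in the ER and Golgi class, and the USP7-si panel has none.

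Set directly against USP7-si, TIP60-si had 12 of 120 Rab probes called, or 10%, where 7.38% of all probes were called. Of the 12, 1 was higher and 11 lower, against 2.97% higher and 4.4% lower of all probes. They belong to 9 genes, and 9 of the 12 are ER and Golgi probes. On the brightest probe of each gene, 7 of 59 Rab genes were called, where 9.66% of all genes were. This comparison uses the same TIP60-si arrays as the one with control-si, so the calls are given side by side and not as separate evidence. Without USP7-si array 4, 8 Rab probes were called, all of them among the 12, while the share of all probes called was 4.60%, and against control-si USP7-si still had 0 by limma. At an unadjusted p under 0.05 stood 27 Rab probes, 6 higher and 21 lower, or 22.5% against 20.7% of all probes, where 9.56% were higher and 11.1% lower. The arrays lay apart upwards on 6 Rab probes and downwards on 19, against 6.77% and 8.03% of all probes. Among markers, 1 of 10 adipocyte genes (Cidec, 0.54) and 2 of 7 preadipocyte genes were called higher in TIP60-si and 1 preadipocyte gene (Col1a1, -0.48) lower. Over all genes on their brightest probe, 3.03% were called higher and 6.62% lower.

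Rab2a MMAB026706 was at -1.20, -1.39, -1.25 and -1.16 in TIP60-si and at -0.64, -0.52, -0.58 and -0.66 in USP7-si, a fold change of -0.65 (SE 0.058, adjusted p = 5.24e-05). The other called Rab2a probes were both at -0.42 (adjusted p = 0.0031 for MMAB036075 and 0.022 for MMAB033982). The Rab1 probes were at -0.30 (adjusted p = 0.0038) and -0.32 (adjusted p = 0.0013). In all of these, each TIP60-si array lay below each USP7-si array. The call of MMAB033982 was lost without TIP60-si array 2, 3 or 4 or USP7-si array 1 or 4 (adjusted p 0.053 to 0.068).

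Rab34, which acts at the Golgi and in the placement of lysosomes, had not passed in either comparison with control-si. It read -0.41, -0.38, -0.34 and -0.35 in TIP60-si and -0.12, -0.19, -0.10 and -0.13 in USP7-si (-0.24, SE 0.045, adjusted p = 0.0066), with control-si between them at a mean of -0.25 ± 0.058. Rab30 read -1.34, -1.57, -1.75 and -1.47 in TIP60-si and -1.10, -1.28, -1.15 and -0.93 in USP7-si (-0.41, SE 0.087, adjusted p = 0.012), but turned to 0.12 when all arrays were scaled to an equal spread. Rab9 fell likewise at -0.29 (SE 0.054, adjusted p = 0.0064) and turned to 0.16 under the same scaling. That scaling stretches USP7-si array 4, whose spread is the narrowest, more than the others. For Rab30, the authors' deposited values had this array at -1.45 in place of -0.93. The group means there were -1.57 in TIP60-si and -1.26 in USP7-si, a smaller gap than the one given above.

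Rab2b MMAB019941 was the probe called higher, at 0.27, 0.22, 0.34 and 0.20 in TIP60-si and -0.08, -0.09, -0.22 and -0.0031 in USP7-si (0.36, SE 0.067, adjusted p = 0.0064). Its brighter probe, MMAB015768, was at 0.15 and did not pass (adjusted p = 0.22). The remaining calls were small: Rab7b at -0.27, Rab5a MMAB000800 at -0.18 and Rab1b MMAB011133 at -0.20, with adjusted p of 0.034, 0.041 and 0.042. All 3 were lost without any one of TIP60-si arrays 3 and 4 or USP7-si arrays 1, 3 and 4, with adjusted p up to 0.145. The calls of Rab5a and Rab1b were lost as well without TIP60-si array 1 or control-si array 2 or 4, and that of Rab1b without control-si array 1. Neither passed in the authors' deposited values, and of 22 alternatives Rab7b kept its call under 12, Rab5a under 8 and Rab1b under 7. Rab7 MMAB015820 stood at 0.68 (SE 0.20, adjusted p = 0.053), just outside the threshold, and at 0.40 (adjusted p = 0.12) in the authors' deposited values.

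Probes of 8 of the 37 genes with several probes disagreed: Rab2a, Rab7, Rab18, Rab30, Rab31, Rab1b, Rab34 and Rab5a. A gene was counted when its probes spanned over 1.5-fold in a comparison, when 1 was called and another had the opposite sign, or when they parted by over 1 in control-si over undifferentiated cells. Rab7 and Rab2a met the rule on fold changes, and Rab7 also on the ratio. Rab30 and Rab31 met it through the ratio alone: Rab30 MMAB027157 was at -1.29 against -0.067 and -0.14 for its other probes, and Rab31 MMAB004963 at -1.21 against -0.33 and -0.13. The dim Rab30 probes were above background on 5 and 6 of 12 arrays and Rab31 MMAB018376 on 8. Rab18, Rab1b, Rab34 and Rab5a met it by sign, and the probes of opposite sign did not pass: Rab18 MMAB022872 at 0.084 against control-si, and Rab1b MMAB011134 at 0.13, Rab34 MMAB003762 at 0.063 and Rab5a MMAB028480 at 0.017 and its brightest probe MMAB000799 at 0.013 against USP7-si.

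Dimmer probes of a Rab gene tended to lie nearer 0. Over the 37 genes, the median absolute ratio of control-si over undifferentiated cells was 0.25 for the brightest probe and 0.070 for the dimmest, and the brightest was the larger in 25. The 120 probes divided at the median intensity had 0.22 above it and 0.060 below it. MMAB015820 of Rab7 goes the other way, since it is the dimmest of its gene and has the largest ratio. These are descriptions, since probes of a gene share its arrays.

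The proteins that run the Rab cycle were taken on the brightest probe of each gene. In TIP60-si against control-si, where 5.21% of all genes were called on their brightest probe (1.46% higher and 3.74% lower), 0 of 7 prenylation and GDI genes, 1 of 34 GEFs, 2 of 36 GAPs, 4 of 63 effectors, 1 of 27 genes of GLUT4 vesicle traffic and 1 of 19 genes of late endosomes and their tethers passed. The shares of these lists ran from 0 to 6.35%. A further list, of 6 measured genes related to the Rabs, had 1 called, or 16.7%. The GAPs Tbc1d14, which binds Rab11 and acts in autophagy, and Tbc1d8b had fold changes of -0.42 (adjusted p = 0.0015) and -0.41 (adjusted p = 0.014). The GEF subunit Hps4, which activates Rab32 and Rab38, was at -0.34 (adjusted p = 0.013).

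Among effectors, Kif20a, a kinesin that binds Rab6 and serves cell division, was at -0.32 (adjusted p = 0.0012), Appl1 of early endosomes at -0.19 (adjusted p = 0.036) and the Rab11 effector Rab11fip5 at -0.20 (adjusted p = 0.048). Micall2, which binds Rab13, was higher at 0.29 (adjusted p = 0.013). Snap23, a SNARE that fuses GLUT4 vesicles, was at -0.27 (adjusted p = 0.0053), and Vps29 of the retromer, which Rab7 recruits, at -0.18 (adjusted p = 0.042). Of 6 measured genes related to the Rabs, the nuclear transport GTPase Ran was called, at -0.30 (adjusted p = 0.037).

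In USP7-si against control-si, 0 genes of these 7 lists passed, where 0.137% of all genes did. The smallest p belonged to Kif20a, at -0.24 (adjusted p = 0.057). Between TIP60-si and USP7-si, where 9.66% of all genes were called (3.03% higher and 6.62% lower), 1 of 7 prenylation and GDI genes, 5 of 34 GEFs, 5 of 36 GAPs, 10 of 63 effectors, 3 of 27 GLUT4 traffic genes 3 of 19 late endosome genes and 0 of 6 Rab relatives passed. Shares of 14.7% of GEFs, 13.9% of GAPs and 15.9% of effectors stand beside the 9.66% of all genes, and were not tested. Of these, the GAP Rab3gap1 (0.21) and Micall2 (0.27) were higher in TIP60-si and the rest lower. Among the lower ones were Sort1, the sorting receptor of GLUT4 vesicles, at -0.31 (adjusted p = 0.020), Plin3, a lipid droplet and Rab9-binding protein, at -0.31 (adjusted p = 0.0029), Lamp2 of the lysosome membrane at -0.29 (adjusted p = 0.027) and the prenylated Rab acceptor Rabac1 at -0.20 (adjusted p = 0.025). The list counts include USP7-si array 4 and are not given without it. Between TIP60-si and USP7-si, 7.38% of all probes were called with that array and 4.60% without it. With equal spread 0.753% were called, and with median centring 0.0996%.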

How the data were processed

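Per the file headers, the deposited scanner files hold a linear intensity per spot for the Cy3 and the Cy5 dye, with the background measured around it. Per the protocols deposited with the series, the authors applied print-tip loess without background correction, and their deposited value table holds log2 ratios, which were checked against their normalized files and run sample over reference. Here the scanner intensities were corrected with normexp (offset 50), normalized by loess within each array and turned to log2 of sample over reference in limma 3.58.1 under R 4.3.3. The sample carried Cy3 on replicates 1 and 3 of each group and Cy5 on replicates 2 and 4. Group and dye orientation were fitted over all 12 arrays, tested two-sided, with Benjamini-Hochberg adjustment over 41174 probes. Precision is limited by the small number of arrays. The procedure was also run on simulated log ratios with independent noise. These hold no array of narrow spread such as USP7-si array 4, so they cannot show its effect.

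Rab probes above background numbered 103 to 118 per array. Symbols came from the platform table and were updated through RefSeq synonyms, so that 6 Rab probes carry an updated symbol. Named probes were drawn from these sets: all Rab7 probes, all called probes, the 6 of smallest p per comparison and probes of known adipocyte Rabs. Also drawn on were the 8 highest and 6 lowest genes over the reference, genes whose probes disagree, and regulator members called or among the 4 of smallest p. Not every member of these sets is printed, and values on each array are given for only some. Members, classes and lists were chosen with earlier results of these data known. The alternatives were no background correction, plain subtraction, median centring, equal spread, the authors' values, array weights, no dye term, the replicate number as a block, dim probes left out, only the 2 groups compared and each array left out.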

Additional observations from a re-analysis of the deposited data

Results flagged for a closer look

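Of 132 groups of 4 arrays checked over 44 named probes, 3 held an array far from the other arrays of its group, where chance gives about 1 in 20. Rab1b MMAB011133 read 0.23 on USP7-si array 2, against 0.34 to 0.35 on the other USP7-si arrays. Rab31 MMAB029970 read -0.42 on TIP60-si array 4, against -0.044 to 0.013 on the others. Rab5a MMAB028480, which was above background on 3 of 12 arrays, read -0.14 on control-si array 4, against 0.055 to 0.070 on the others.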

How the results depend on the processing

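The count of Rab probes called in TIP60-si against control-si, 8 as reported, was 4 with plain background subtraction (0 higher, 4 lower), 5 without the dye term (0 higher, 5 lower), where the share of all probes called fell to 1.55% and 1.46%, and 0 with median centring and 0 with equal spread, where 26 and 97 of all probes were called. Leaving out single arrays gave 5 to 8, with 5 without control-si array 1, 2 or 4 or TIP60-si array 3. Without these arrays in turn, 2.09%, 1.79%, 1.80% and 2.15% of all probes were called, against 3.78% with all arrays. Between TIP60-si and USP7-si, 12 became 7 with plain subtraction, 7 without the dye term, 0 with median centring and 0 with equal spread. Of all probes, 2.63% were called with plain subtraction and 3.33% without the dye term. Without single arrays, 8 to 15 Rab probes were called there, and 3.64% to 8.14% of all probes. USP7-si against control-si gave 0 under every setting. The 8 Rab genes past 1.5-fold over undifferentiated cells became 3 at 2-fold, 3 with the mean of all probes, and 8 to 9 without single arrays. Of the 22 alternatives, Rab2a MMAB026706 and MMAB036075 and both Rab1 probes kept their call in TIP60-si against control-si under 20, Rab9 under 15, Rab2a MMAB033982 and Rab7 MMAB015820 under 13 and Rab18 under 9, and all 8 probes kept their direction under all 22. Of the 12 called between TIP60-si and USP7-si, those of Rab2a MMAB033982, Rab7b, Rab5a and Rab1b held under 14, 12, 8 and 7, and the others under 19 or 20. Rab7 MMAB015820 lost its call at 0.80 with plain subtraction, 0.85 with median centring, 0.57 with equal spread and 0.84 without the dye term, and ranged from 0.71 to 0.98 without single arrays. Rab7 MMAB001666, near 0 as reported, turned to -0.21 with median centring, -0.013 in the authors' values and -0.011 with array weights (-0.022 to 0.036 without single arrays), and Rab7 MMAB037380 to -0.023 with median centring (0.032 to 0.17 without single arrays). With equal spread, Rab30 turned to -0.17 in USP7-si against control-si and to 0.12 in TIP60-si against USP7-si, and Rab9 to 0.16 there. The causes were not tested. With the replicate number as a block, 8, 0 and 14 Rab probes were called, against 4.17%, 0.090% and 8.14% of all probes. After group means and the dye term were removed, correlations of same-numbered arrays ran from -0.29 to 0.31. Dye orientation goes with the replicate number, so removing the dye term also removes part of any effect shared by same-numbered arrays. These values cannot settle whether the numbers pair the samples. A slide or scan block was not run, since the files used here give neither. Signal over background limits the dim probes, as 96 of 120 Rab probes were above background on every array.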
